A study of Mus musculus with 6 samples.

Results

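Dnmt3l and Uhrf1 were described in mouse round spermatids with and without Eif5a. The DNA methylation machinery was chosen by gene name from the table of read counts per gene, because Dnmt3l counts were much lower in the mutant libraries. Of the 8 genes proposed (Dnmt1, Dnmt3a, Dnmt3b, Dnmt3l, Uhrf1, Tet1, Tet2 and Tet3), 2 were analysed, Dnmt3l and Uhrf1, out of 22770 gene rows in all. The other 6 were not analysed here, so nothing can be said of the catalytic DNA methyltransferases or the TET enzymes.

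The study sorted round spermatids by flow cytometry from the testes of mice at postnatal day 28, an age at which, per its design text, these haploid cells were mainly at step 8 of spermiogenesis. One group had the genotype Eif5a SKO (3 libraries), and the other was wild type (WT, 3 libraries). The labels do not expand SKO, and the table names these libraries cKO; the promoter or Cre line behind the deletion is not given in the sources used here, nor whether replicates came from separate animals, so p-values measure the spread between these libraries, which may be technical. RNA was measured by Smart-seq2, a PCR-based full-length cDNA method for polyadenylated transcripts that here carried no molecular identifiers.

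DNA methylation is placed on cytosines of CpG pairs by de novo methyltransferases and copied at replication by a maintenance enzyme. DNMT3L is a relative of the de novo enzymes with no catalytic activity of its own; it binds and stimulates them, and in mouse it is required for retrotransposon silencing in fetal male germ cells and for maternal imprints in oocytes. UHRF1 recognises hemimethylated CpGs behind the replication fork and recruits the maintenance enzyme. TET enzymes oxidise methylated cytosine, and base excision repair can replace the oxidised base. In the mouse germ line, de novo methylation of male genomes takes place mainly before birth, well before the round spermatid stage, and spermatids no longer replicate DNA.

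Dnmt3l lies on the plus strand of chromosome 10 at chr10:78041947-78063622 (GRCm38), with 8 annotated transcripts in GENCODE M21, of which 6 are coding. Of these, 3 begin at an internal start, 13388 bp from the start of the gene, between exons 9 and 10 of a coding transcript with 13 exons. The shortest of the 3 shares the last 4 exons of that transcript. Transcripts from an internal promoter are known from adult mouse testis. Counts were per gene, so transcripts from the different starts cannot be told apart. The RefSeq windows around the starts (GRCm38.p6, plus strand, 250 bases before to 50 bases from the start on) are printed to set the CpG content of the Dnmt3l starts beside that of a CpG-rich start of Uhrf1; capitals mark CpG pairs.

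Dnmt3l, upstream start, chr10:78042037-78042336: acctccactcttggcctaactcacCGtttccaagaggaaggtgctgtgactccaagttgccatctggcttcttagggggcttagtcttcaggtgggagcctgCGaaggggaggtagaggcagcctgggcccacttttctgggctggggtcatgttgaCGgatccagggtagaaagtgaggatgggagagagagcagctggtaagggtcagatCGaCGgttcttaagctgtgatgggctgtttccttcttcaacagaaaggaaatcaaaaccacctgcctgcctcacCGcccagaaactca
Dnmt3l, middle start, chr10:78049592-78049891: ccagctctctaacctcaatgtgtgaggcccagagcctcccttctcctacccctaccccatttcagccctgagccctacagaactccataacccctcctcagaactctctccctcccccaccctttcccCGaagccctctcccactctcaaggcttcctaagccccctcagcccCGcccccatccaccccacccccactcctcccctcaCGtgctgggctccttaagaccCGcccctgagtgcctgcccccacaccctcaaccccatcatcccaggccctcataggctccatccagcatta
Dnmt3l, internal start, chr10:78055085-78055384: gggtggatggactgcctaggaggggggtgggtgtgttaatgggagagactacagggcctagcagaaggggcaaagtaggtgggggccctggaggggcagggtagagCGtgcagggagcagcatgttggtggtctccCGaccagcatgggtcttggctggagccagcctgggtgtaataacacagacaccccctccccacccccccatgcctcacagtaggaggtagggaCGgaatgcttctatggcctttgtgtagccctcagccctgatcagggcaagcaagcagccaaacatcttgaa
Uhrf1, CpG-rich start, chr17:56304063-56304362: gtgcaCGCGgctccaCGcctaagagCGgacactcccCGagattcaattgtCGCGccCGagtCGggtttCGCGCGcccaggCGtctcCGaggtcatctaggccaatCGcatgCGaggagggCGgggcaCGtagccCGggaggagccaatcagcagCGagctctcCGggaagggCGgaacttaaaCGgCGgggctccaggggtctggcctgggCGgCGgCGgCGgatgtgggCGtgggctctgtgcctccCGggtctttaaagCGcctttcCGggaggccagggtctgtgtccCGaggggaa

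These Dnmt3l windows held 6, 4 and 3 CpG pairs in the printed order, against a median of 7 over 32851 windows of 300 bases, and the internal start stood at percentile 23.3 of CpG number. The printed Uhrf1 window held 33 CpG pairs and stood at percentile 91.4. Uhrf1 had a further window with 12. Searched on both strands, the cAMP response element TGACGTCA occurred in 1.79% of all windows and in none of the 5 windows of both genes. Its shorter form TGACG, which the longer motif contains, occurred in 20.8% of all windows and in the upstream Dnmt3l window. The GC box GGGCGG occurred in 35.7% of all windows, in the upstream and middle Dnmt3l windows and in both Uhrf1 windows. A match of letters does not show a bound site, and a missing match says only that these letters were not in the window.

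Libraries held 52055193 to 60970931 counts. A gene was called higher or lower in SKO where its p by edgeR's quasi-likelihood test, adjusted by Benjamini and Hochberg's method over 19776 tested genes, was below 0.05; 42.0% of all tested genes were called. As a check of the labels, Eif5a, which encodes a translation elongation factor, had 333, 338 and 270 counts in the SKO libraries, against 41149, 36162 and 41278 counts in the WT libraries. Round spermatid markers were detected in every library: 10 of 10 were measured, and they summed to 5988 to 7453 CPM (a gene's counts scaled to the effective library size) in SKO libraries, against 3812 to 4330 CPM in WT libraries. Of these 10 markers, 7 were called higher in SKO and 0 lower. Markers of spermatocytes (10 of 10 measured) summed to 442 to 554 CPM in SKO cells, against 412 to 474 CPM in WT, with 2 called higher and 3 lower. SKO library 3 stood apart from SKO libraries 1 and 2 on the second principal component.

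The measured markers of other testis cells that could enter the sort were also summed. The Leydig and macrophage sums of the groups overlapped, and the other sums did not. For Sertoli cells (6 of 12 markers measured), all 6 were called higher, and they summed to 44.0 to 174.9 CPM in SKO libraries, against 1.77 to 9.17 CPM in WT libraries. For Leydig cells (6 of 7 measured), 3 were called higher, and they summed to 8.02 to 44.6 CPM in SKO libraries, against 1.26 to 21.6 CPM in WT libraries. Spermatogonium markers (6 of 10 measured) summed to 27.9 to 29.3 CPM in SKO and 30.7 to 34.5 CPM in WT, with 2 called lower. S phase and mitosis genes (9 of 10 measured) summed to 84.5 to 104.9 CPM in SKO and 166.1 to 198.1 CPM in WT, with 2 called lower. Peritubular myoid markers (3 of 5 measured) summed to 16.05 to 35.9 CPM in SKO and 5.15 to 11.97 CPM in WT. Of these only Acta2 was called, higher in SKO, while Myh11 and Cnn1 overlapped between the groups. Macrophage markers (6 of 7 measured) summed to 2.44 to 8.65 CPM in SKO and 5.595 to 6.87 CPM in WT. Of these, 1 was called higher, 1 lower and 1 was below the filter. None of these markers was at 0 in all libraries of a group, and the part of other cells in the results on Dnmt3l, Uhrf1 and their partners was not tested.

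**Figure D1:**
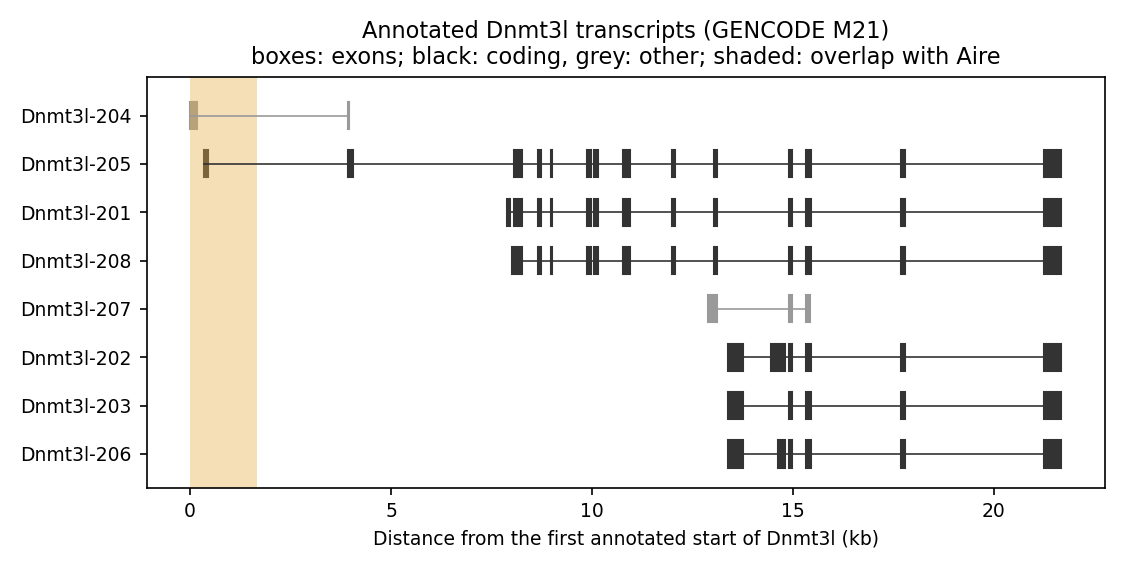
Exons (boxes) of the 8 annotated Dnmt3l transcripts, coding ones in black and others in grey, against distance from the first annotated start in kb; the shaded 1664 bp overlap Aire on the opposite strand. The 3 coding transcripts at the bottom begin at the internal start, 13388 bp from the first start.

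Dnmt3l RNA was much lower in SKO spermatids than in WT spermatids. The gene had 126, 101 and 76 counts in the SKO libraries, against 1546, 1861 and 1999 counts in the WT libraries. Scaled to effective library size, its level was 2.60, 1.87 and 1.505 CPM in SKO cells, against 26.3, 31.7 and 32.0 CPM in WT. All 3 SKO libraries lay far below all 3 WT libraries, and the groups did not overlap. The mean was 1.99 ± 0.559 CPM in SKO and 30.0 ± 3.21 CPM in WT (SD, n = 3 each), a log2 fold change of −3.91 ± 0.23 (SE), so that the WT mean was 15.1 times the SKO mean. Because this contrast led to the choice of Dnmt3l, it is a description and carries no test.

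Per kilobase of the transcript with its longest coding sequence (1822 nt), Dnmt3l reached 1.43, 1.03 and 0.826 CPM per kb in SKO, against 14.5, 17.4 and 17.6 CPM per kb in WT. Among 19203 genes with a length, its mean level per length stood at percentile 38.1 in SKO and at percentile 78.7 in WT. In WT spermatids the transcript was thus in the upper part of the expressed range, while in SKO spermatids it lay below the middle. With the lengths of the other coding transcripts (1113 nt for the shortest), the mean level was 1.09 to 1.79 CPM per kb in SKO and 16.5 to 27.0 CPM per kb in WT. Across all tested genes, 134 had a lower log2 fold change than Dnmt3l. Its first 1664 bp overlap Aire on the opposite strand, which was not analysed here; the strand setting of the counting is not given in the sources used here.

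Uhrf1, on the plus strand of chromosome 17 (chr17:56303321-56323486, GRCm38), did not follow Dnmt3l. It had 834, 921 and 1125 counts in SKO, against 1354, 974 and 1003 counts in WT. Its level was 17.2, 17.1 and 22.3 CPM in SKO cells, against 23.1, 16.6 and 16.1 CPM in WT. The groups overlapped: SKO library 3 was the highest of its group and WT library 1 of its own, and the remaining 4 libraries lay close together. The mean was 18.9 ± 2.96 CPM in SKO and 18.6 ± 3.89 CPM in WT (SD, n = 3 each), with a log2 fold change of 0.02 ± 0.19 (SE). Scaled per kilobase of its 3586 nt transcript, Uhrf1 averaged 5.26 ± 0.824 CPM per kb in SKO and 5.18 ± 1.09 CPM per kb in WT, near percentile 63.1 and 62.6 of all genes. Its small difference depends on the processing: correcting for the length and GC content of transcripts gave a log2 fold change of 0.43. Fold changes varied with transcript length over the tested protein-coding genes. The median was 0.71 for the 1656 shortest (114 to 1299 nt) and 0.18 for those of 1300 to 1894 nt, which include Dnmt3l at 1822 nt. It was −0.25 for those of 3039 to 3702 nt, which include Uhrf1. The Dnmt3l transcripts of 1113 and 1279 nt from the internal start would fall among the shortest.

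**Figure D2:**
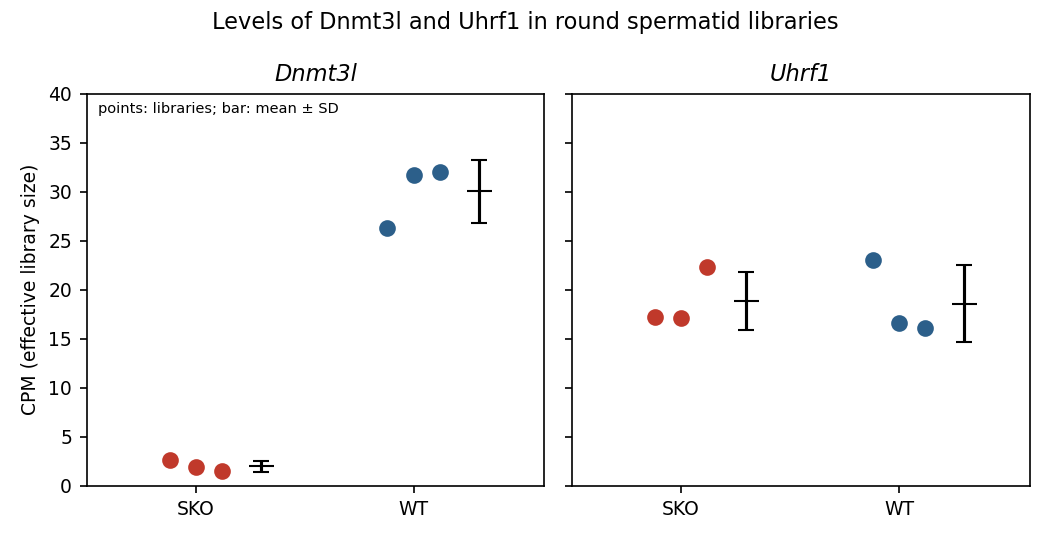
Level of Dnmt3l (left panel) and Uhrf1 (right panel) in each library, in CPM of effective library size, with SKO left of WT; points are libraries and the bar is the mean ± SD of 3. Dnmt3l lay at 1.505 to 2.60 CPM in SKO and 26.3 to 32.0 CPM in WT, while the Uhrf1 groups overlapped.

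The order of both genes within a library was reversed between the groups. The ratio of Dnmt3l to Uhrf1, both per kilobase, was 0.297, 0.216 and 0.133 in SKO, against 2.25, 3.76 and 3.92 in WT. In all 3 SKO libraries Uhrf1 had the higher level per length, and in all 3 WT libraries Dnmt3l had. This ratio does not depend on how libraries are scaled, but it contains the Dnmt3l values that led to the choice.

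Of Dnmt3l and Uhrf1, both of which passed the filter on low counts, 1 was called, Dnmt3l, lower in SKO; 42.0% of all tested genes were called, 21.2% higher and 20.9% lower. The groups did not overlap for Dnmt3l, nor for 55.6% of all tested genes, with SKO below WT for 28.3% and above WT for 27.3%. Nothing is read from these counts, since the contrast led to the choice. The median log2 fold change of all genes was 0.01. With library totals in place of trimmed-mean factors this median moved to −0.23, and the share of higher genes among the calls to 33.3%, against 50.3%. Relative to the median of all genes, Dnmt3l stood at −3.93 with library totals and at −3.92 with trimmed-mean factors, and Uhrf1 at 0.02 and 0.01.

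Genes of the pathway that work beside the members were examined in 8 lists, of which 81 of 116 listed genes were analysed. Together 20 were called higher, 15 lower and 46 were not called, which is 43.2% called, near the 42.0% of all tested genes; the median log2 fold change was 0.16. Dnmt3l, at −3.91, lay below every analysed gene of these lists, but it was chosen for its fall, so nothing is read from this rank. Adjusted p-values of partners are edgeR's over all genes.

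**Figure D3:**
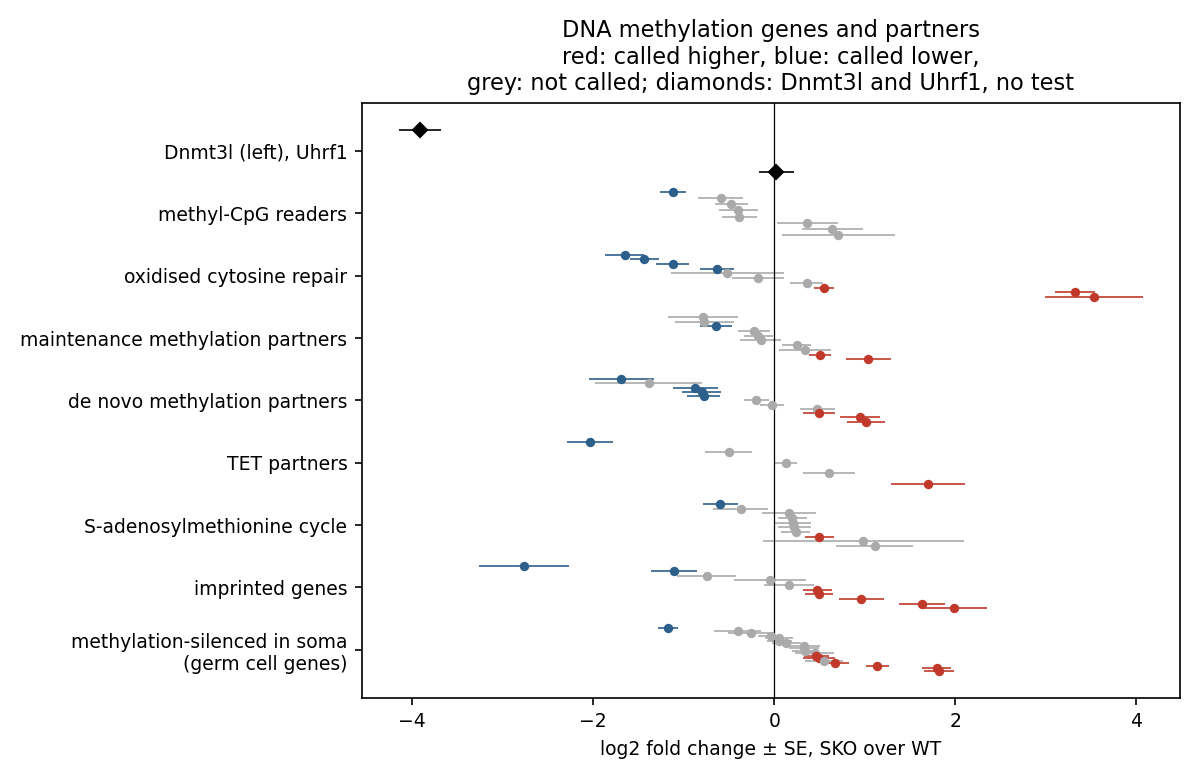
Log2 fold change of SKO over WT (x axis, bars are ± SE) for Dnmt3l and Uhrf1 (diamonds, no test) and each analysed gene of the 8 lists (rows). Red points were called higher in SKO, blue points lower and grey points were not called. Dnmt3l, chosen for its fall, lies at −3.91, left of all listed genes.

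Some of the partners described next overlap another counted gene on the opposite strand. Reads of such genes cannot be told apart unless libraries and counting kept the strand, which is not given in the sources used here. Kdm1b overlaps Dek, Kdm1a overlaps Luzp1, Lig3 overlaps Rffl, Mbd5 overlaps Orc4, and Ahcy overlaps Gm45609. Kcnq1ot1 overlaps Kcnq1 over 93092 bp.

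The list of de novo methylation partners holds genes of chromatin and of the piRNA pathway, and also Trdmt1, a tRNA methyltransferase gene. Trdmt1 was called lower, at 4.06 CPM in SKO and 7.43 CPM in WT (−0.87 ± 0.25, adjusted p = 0.0182). Of 11 analysed genes, 3 were called higher, 4 lower and 4 were not called, with a median log2 fold change of −0.20; without WT replicate 3, 2 were called lower, and with library totals 6. Spocd1, required in mouse for piRNA-directed methylation in fetal male germ cells, had 1.45, 0.612 and 1.41 CPM in SKO cells, against 3.03, 4.64 and 3.49 CPM in WT (log2 fold change −1.69 ± 0.36, adjusted p = 0.00443). Kdm1b, a histone demethylase needed for maternal imprints in mouse oocytes, fell to 4.68 ± 0.284 CPM in SKO cells, against 8.02 ± 0.779 CPM in WT (−0.78 ± 0.18, adjusted p = 0.00749). Ctcfl, a germ cell paralog of CTCF, averaged 4.75 CPM in SKO and 8.27 CPM in WT (−0.80 ± 0.21, adjusted p = 0.0134); it overlaps an antisense gene, and the call ended without WT replicate 3 (adjusted p = 0.0542) and with the length and GC correction (0.0972). The histone methyltransferases Nsd1 and Setd2 rose, while their relative Nsd2 was not called (0.48, adjusted p = 0.0701). Nsd1 had 4.63, 3.99 and 4.32 CPM in SKO cells, against 2.20, 2.05 and 2.15 CPM in WT (1.02 ± 0.21, adjusted p = 0.00423). Setd2 averaged 13.0 CPM in SKO and 6.74 CPM in WT (0.95 ± 0.22, adjusted p = 0.00722). Mael, a piRNA pathway gene, had 3798, 3871 and 2439 CPM in SKO cells, against 2336, 2411 and 2412 CPM in WT (0.50 ± 0.17, adjusted p = 0.0434). SKO library 3 was close to WT for Mael, and its call ended under 8 of 15 alternatives, with an adjusted p of up to 0.213. The histone demethylase Kdm1a, among the most abundant of the list per length in WT, was at 101.2 CPM in SKO and 116.1 CPM in WT (adjusted p = 0.283).

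Partners of maintenance methylation include Uhrf1's binding partners. Of 10 analysed genes, 2 were called higher, 1 lower and 7 were not called, with a median of −0.16 (0.15 with the length and GC correction). Usp7, a deubiquitinase that binds UHRF1 and the maintenance methyltransferase, had 268.1, 255.1 and 172.3 CPM in SKO cells, against 336.8, 392.3 and 357.0 CPM in WT (−0.64 ± 0.17, adjusted p = 0.0146). Without WT replicate 2 its adjusted p was 0.0628. Hells, a chromatin remodeller needed for normal methylation, had 4.42, 6.40 and 6.77 CPM in SKO cells, against 2.39, 2.74 and 3.43 CPM in WT (1.04 ± 0.25, adjusted p = 0.00816). Pcna, the replication clamp that tethers the maintenance enzyme, averaged 300.5 CPM in SKO and 211.6 CPM in WT (0.51 ± 0.12, adjusted p = 0.00881). The Pcna call ended with library totals (adjusted p = 0.101) and with the length and GC correction (0.0582). S phase and mitosis genes as a sum were lower in all SKO libraries, as given above, but of the 9 measured only Mcm7 and Rrm2 were called. Mcm7 averaged 25.6 CPM in SKO and 81.4 CPM in WT, and Rrm2 14.6 CPM in SKO and 34.75 CPM in WT. Ccna2 went the other way, with all SKO libraries above all WT libraries, and was not called. Hells and Pcna were higher and Uhrf1 overlapped.

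The repair list, which follows oxidation of methylated cytosine, held the partners with the widest spread. Of 10 analysed genes, 3 were called higher, 4 lower and 3 were not called, with a median of −0.35. Gadd45b and Gadd45g, stress-inducible genes linked to active demethylation, were among the higher ones. Gadd45b had 8.63, 7.755 and 8.75 CPM in SKO cells, against 0.766, 0.784 and 0.946 CPM in WT (3.33 ± 0.22, adjusted p = 1.6e-05). Gadd45g had 2.75, 1.73 and 4.515 CPM in SKO cells, against 0.136, 0.460 and 0.176 CPM in WT (3.53 ± 0.54, adjusted p = 0.000804). Polb, the repair polymerase, averaged 409.6 ± 6.22 CPM in SKO and 279.3 ± 4.34 CPM in WT (0.55 ± 0.11, adjusted p = 0.00344). The 4 called lower were Parp1, Neil3, Xrcc1 and Lig3. The groups overlapped for the 3 not called, Tdg, Smug1 and Apex1. Tdg was at 0.419 CPM in SKO and 0.602 CPM in WT (adjusted p = 0.54). Smug1 was at 1.46 CPM in SKO and 1.65 CPM in WT (adjusted p = 0.646), and Apex1 at 12.1 CPM in SKO and 9.4 CPM in WT (adjusted p = 0.145). Parp1, which marks single-strand breaks, had 6.98, 6.46 and 10.2 CPM in SKO cells, against 22.7, 29.8 and 21.6 CPM in WT (−1.65 ± 0.22, adjusted p = 0.000376). Neil3, a DNA glycosylase, averaged 14.0 ± 1.52 CPM in SKO and 37.95 ± 4.30 CPM in WT (−1.44 ± 0.16, adjusted p = 0.000163). The repair scaffold Xrcc1 averaged 20.4 ± 3.802 CPM in SKO and 44.4 ± 5.61 CPM in WT (−1.12 ± 0.18, adjusted p = 0.000992). Its ligase partner Lig3 had a log2 fold change of −0.63 ± 0.19 (adjusted p = 0.0231), a call that ended under 4 alternatives with an adjusted p of up to 0.102. Without WT replicate 2, the Gadd45g log2 fold change was 4.24. The Sertoli marker sum was likewise higher in all 3 SKO libraries than in any WT library, while the Leydig sums of the groups overlapped, and whether other cells contributed to the Gadd45 values was not tested.

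Methyl-CpG readers bind methylated DNA or belong to that protein family. Of 8 analysed genes, 0 were called higher, 1 lower and 7 were not called, with a median of −0.39. The called gene was Mbd5, a member of the methyl-CpG-binding domain family, with 12.8, 14.6 and 14.0 CPM in SKO cells, against 31.2, 29.0 and 29.4 CPM in WT (−1.11 ± 0.14, adjusted p = 0.000318). Mbd3, a subunit of the NuRD complex, was at 55.0 ± 13.9 CPM in SKO and 76.35 ± 1.29 CPM in WT (adjusted p = 0.0606), and Mbd2, its relative that binds methylated CpGs, at 17.1 ± 3.69 CPM in SKO and 22.3 ± 2.80 CPM in WT (adjusted p = 0.141). Of the 8 readers, 5 were called lower with library totals and 3 without SKO replicate 1; with the length and GC correction 1 was called higher and 1 lower, and the median was −0.13.

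TET enzymes need α-ketoglutarate, which the isocitrate dehydrogenases make. Of 5 analysed TET partners, 1 was called higher, 1 lower and 3 were not called, with a median of 0.13 (−0.10 with library totals, and −0.48 over the 3 genes with at least 5 CPM in 3 libraries). Idh1, the cytosolic enzyme, had 8.43, 6.27 and 4.04 CPM in SKO cells, against 22.3, 26.2 and 28.5 CPM in WT (−2.04 ± 0.26, adjusted p = 0.000284). Idh2, the mitochondrial enzyme, had 1.92, 1.97 and 2.57 CPM in SKO cells, against 0.954, 0.324 and 0.705 CPM in WT (1.70 ± 0.41, adjusted p = 0.00889). The CXXC zinc finger gene Cxxc5 was at 134.1 CPM in SKO and 122.5 CPM in WT (adjusted p = 0.415).

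The S-adenosylmethionine cycle supplies the methyl donor. Of 10 analysed genes, 1 was called higher, 1 lower and 8 were not called, with a median of 0.22 (−0.02 with library totals). Ahcy, which hydrolyses S-adenosylhomocysteine, averaged 20.01 CPM in SKO and 30.2 CPM in WT (−0.60 ± 0.19, adjusted p = 0.0311). Its relative Ahcyl2 averaged 38.9 CPM in SKO and 27.5 CPM in WT (0.50 ± 0.16, adjusted p = 0.0313). The Ahcy call ended under 5 alternatives, with an adjusted p of up to 0.157, and the Ahcyl2 call under 6, with one of up to 0.251 (0.0716 without SKO replicate 3). Ahcyl1 was at 24.4 CPM in SKO and 20.7 CPM in WT (adjusted p = 0.261).

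Imprinted genes carry methylation marks set in the germ line, and 10 of the 33 listed were analysed. Of these, 5 were called higher, 2 lower and 3 were not called, with a median of 0.32. Only 3 were called higher with library totals, with the replicate as a block, or without SKO replicate 2, WT replicate 1, WT replicate 2 or WT replicate 3, each left out alone. Rasgrf1, whose imprint is set on the paternal allele in mouse, had 1.51, 1.15 and 0.238 CPM in SKO cells, against 5.64, 7.55 and 6.59 CPM in WT (−2.77 ± 0.50, adjusted p = 0.0019). Cdkn1c, a cell cycle inhibitor expressed from the maternal allele, averaged 1.54 CPM in SKO and 3.32 CPM in WT (−1.11 ± 0.25, adjusted p = 0.00643). Sgce, expressed from the paternal allele, had 3.59, 3.28 and 3.19 CPM in SKO cells, against 0.937, 1.11 and 1.20 CPM in WT (1.63 ± 0.25, adjusted p = 0.000865). Impact averaged 2.18 CPM in SKO and 0.549 CPM in WT (1.99 ± 0.37, adjusted p = 0.00228). The non-coding Kcnq1ot1, antisense to Kcnq1, averaged 20.5 CPM in SKO and 10.5 CPM in WT (0.96 ± 0.25, adjusted p = 0.0116). Zdbf2 was at 177.9 CPM in SKO and 126.2 CPM in WT (adjusted p = 0.0277), and Peg13, inside Trappc9, at 29.6 CPM in SKO and 21.2 CPM in WT (adjusted p = 0.0389); the Zdbf2 call ended under 6 alternatives (adjusted p of up to 0.234) and the Peg13 call under 8 (up to 0.292, and 0.0837 without SKO replicate 3). RNA levels say nothing of the allele or of methylation, which was not measured.

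Some germ cell genes have promoters that are methylated in somatic cells. All 18 listed were analysed: 6 were called higher, 1 lower and 11 were not called, with a median of 0.34; without SKO replicate 3, 10 were called higher and 2 lower. Dazl, an RNA-binding protein of germ cells, had 77.7, 79.6 and 59.4 CPM in SKO cells, against 21.1, 19.4 and 21.8 CPM in WT (1.798 ± 0.16, adjusted p = 5.8e-05). Sycp3, of the synaptonemal complex, averaged 143.8 ± 18.15 CPM in SKO and 40.6 ± 6.05 CPM in WT (1.82 ± 0.16, adjusted p = 5.8e-05); it overlaps Chpt1 on the opposite strand, and the length and GC correction reduced its log2 fold change to 0.95. The X-linked Taf7l averaged 76.2 ± 4.09 CPM in SKO and 34.6 ± 0.325 CPM in WT (1.14 ± 0.13, adjusted p = 0.000168). Tuba3a fell to 1020 ± 40.95 CPM in SKO cells, against 2295 ± 45.2 CPM in WT (−1.17 ± 0.11, adjusted p = 7.5e-05). It has near-identical paralogs and overlaps the counted gene 4930417O13Rik on the opposite strand over 7769 bp, so its count is uncertain.

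Among 8192 genes compared, the 5 with profiles nearest to that of Dnmt3l were Rnpep, Chac1, Cacng5, Ncs1 and Ppargc1a. Not all tested genes were compared, so a nearer gene may lie outside these 8192. Likeness was the root mean square difference of log2 CPM values, each centred on its mean over the 6 libraries. Being chosen for likeness, the 5 genes carry no test. Rnpep, an aminopeptidase gene that overlaps the antisense Gm26642, was nearest with a difference of 0.189, and had 2.50, 1.74 and 1.31 CPM in SKO cells, against 29.7, 37.1 and 25.9 CPM in WT. Chac1, which degrades glutathione, had a difference of 0.254 and averaged 0.843 CPM in SKO and 11.65 CPM in WT. Cacng5, a calcium channel gamma subunit gene, had 0.258 and averaged 3.29 CPM in SKO and 36.7 CPM in WT. The calcium sensor gene Ncs1 had 0.262 and averaged 0.706 CPM in SKO and 12.3 CPM in WT. Ppargc1a, a transcriptional coactivator of mitochondrial genes, had 0.307 and averaged 0.328 CPM in SKO and 6.52 CPM in WT.

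**Figure D4:**
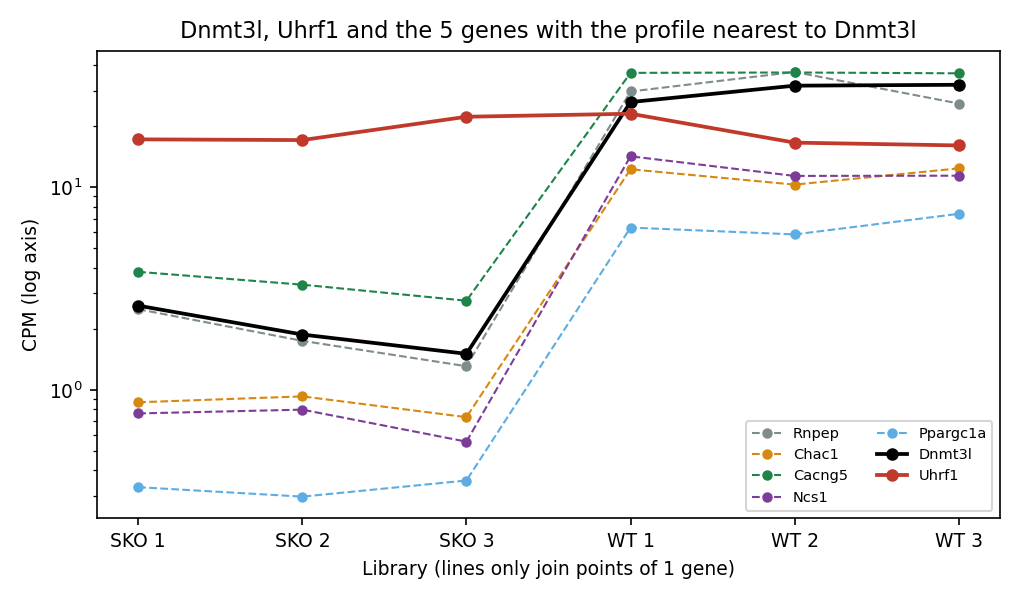
Level in CPM (log axis) of Dnmt3l (black), Uhrf1 (red) and, of the genes compared, the 5 nearest to Dnmt3l (dashed). The x axis holds the SKO libraries and then the WT libraries, and lines only join the points of 1 gene. Dnmt3l and the 5 genes were low in the 3 SKO libraries and high in the 3 WT libraries, while Uhrf1 stayed between 16.1 and 23.1 CPM in all 6.

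The analysed genes near Uhrf1 did not share one direction. Near Dnmt3l only Gm47922 was analysed, while the closer Pfkl, Icosl and 1810043G02Rik and the overlapping Aire were not. Downstream of Dnmt3l, the long non-coding Gm47922 had 0, 0.705 and 0.911 CPM in SKO libraries, against 1.16, 0.733 and 0.994 CPM in WT (adjusted p = 0.489). On the upstream side of Uhrf1, Arrdc5, of the arrestin domain family, averaged 467.9 CPM in SKO and 360.5 CPM in WT (log2 fold change 0.38 ± 0.12, adjusted p = 0.0316), and on the downstream side the histone demethylase gene Kdm4b was at 1.19 CPM in SKO and 1.85 CPM in WT (−0.63 ± 0.37, adjusted p = 0.202). Beyond Kdm4b, Ptprs, a receptor phosphatase gene, averaged 7.39 CPM in SKO and 4.02 CPM in WT (0.88 ± 0.19, adjusted p = 0.00498). Beyond Arrdc5, Plin3, a lipid droplet protein gene, averaged 1.93 CPM in SKO and 4.51 CPM in WT (−1.22 ± 0.25, adjusted p = 0.00405).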

How the data were processed

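The authors deposited a table of raw read counts per gene and library. Made, per the submitters' processing notes, on GRCm38 (mm10), it came from reads checked in FastQC, trimmed in Trim Galore (0.6.4), aligned by HISAT2 (2.0.5) and counted by featureCounts of Subread (1.5.0-p3); gene annotation, strandedness and multi-mapper handling are not given in any source used here, so overlapping genes may share reads. Columns were joined to samples by genotype label and replicate.

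Counts were tested with edgeR 4.0.16 in R 4.3.3 (filterByExpr with a minimum count of 10 and a minimum total of 15, TMM factors, quasi-likelihood test of SKO against WT, two-sided, Benjamini-Hochberg adjustment over 19776 genes, threshold 0.05); 2994 genes fell below the filter. CPM use effective library sizes; lengths are of the GENCODE M21 transcript with the longest coding sequence. The code was tested on simulated data. DESeq2 1.42.0 and limma 3.58.1 were alternatives, beside other scalings, filters and left-out libraries.

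The genes and lists were chosen with earlier results of these data known. Each list contributes its lowest adjusted p-values, at most 3 genes per direction, and the 2 genes with the highest WT level per length. Named besides are the 5 genes nearest to Dnmt3l among those compared, the neighbours of Dnmt3l and Eif5a. Nsd2, Trdmt1, Tdg, Smug1, Apex1, single cell type markers and the neighbours of Uhrf1 were added after their values were seen.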

Additional observations from a re-analysis of the deposited data

How the results depend on the processing

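Dnmt3l was chosen for its fall in these same counts, so its range under the alternatives is a description. It kept its direction under all alternatives run, at a log2 fold change of −4.17 to −3.76, and at −4.17 to −3.78 with each library left out in turn. Uhrf1 was not called under any; its log2 fold change was −0.15 to 0.21 with each library left out, −0.21 with library totals and 0.43 with the length and GC correction, so its sign is not determined. Genes called lower, 4127 of all tested, numbered 2742 where at least 5 CPM in 3 libraries was required, which leaves fewer genes to test. With each library left out in turn, 3064 to 4329 genes were called higher and 3025 to 4766 lower; of the listed partners, 15 to 24 were called higher and 12 to 19 lower. With library totals, 24 partners were called lower and 14 higher, against 15 lower and 20 higher with trimmed-mean factors. Replicate numbers did not pair the libraries: deviations of same-numbered libraries correlated at −0.0221, −0.0511 and −0.0655, and no library correlated best with its own number. With the replicate as a block, 3552 genes were called higher and 3666 lower, Dnmt3l stood at −3.94, Uhrf1 at 0.03, and 15 partners were called higher and 15 lower. Over 44 named genes and their alternatives (651 values), 598 kept direction and side of the threshold, 42 lost the call, 8 gained it and 3 changed sign, none of them called before or after: Ahcyl1 at −0.006 and Cxxc5 at −0.105 with library totals, and Kdm1a at 0.13 with the length and GC correction. Many of the named genes were chosen from these data for a low adjusted p or for likeness to Dnmt3l. The tally therefore describes the named genes only and is no measure for other genes. With 3 libraries a group, and PCR reads that are not independent molecules, the precision is that of these libraries.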
